A study of Mus musculus with 22 samples.

Results

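The 9 genes described here encode enzymes of the committed sterol branch, the steps that turn farnesyl diphosphate into squalene and then into cholesterol. They were matched by symbol: Fdft1, Sqle, Lss, Cyp51, Msmo1, Nsdhl, Hsd17b7, Sc5d and Dhcr7. All 9 were found once each among the 21674 named genes of the deposited normalised tables and all 9 passed the low-count filter, with between 567 and 26686 counts in every library. RNA-seq was done on naive CD8+ T cells isolated by magnetic depletion from spleen and lymph nodes, and on the same cells after 24 h or 48 h of stimulation with plate-bound anti-CD3 and soluble anti-CD28 antibodies, a polyclonal stimulus through the antigen receptor with costimulation. The KI groups were 3 mice of the line labelled Tcaim KI Cd4Cre with the genotype hocre, each sampled at 0, 24 and 48 h, and the wt groups were 3 mice of that line with the genotype wtcre at the same times. The KO groups were 2 mice of the line labelled Tcaim KO Cd4Cre with the genotype hocre, sampled at 0 and 48 h. Each library thus came from 1 mouse, and the 8 mice gave 22 libraries in 8 groups. Cd4Cre denotes a Cre recombinase under Cd4 regulatory sequences, which is active during T cell development, so the allele is altered in T cells and not in the whole mouse. Mice were handled in experiments numbered 1, 3 and 5, with 1 KI and 1 wt mouse in each and 1 KO mouse in experiments 1 and 5. The KI and wt mice of experiments 1 and 3 were male, those of experiment 5 were female, and both KO mice were female. The age of the mice is not given in the sources used here, and no wt mice of the KO line were analysed here.

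Cholesterol is made from acetyl-CoA through the mevalonate arm, which ends at farnesyl diphosphate. Squalene synthase (Fdft1) draws that intermediate into sterols, squalene epoxidase (Sqle) and lanosterol synthase (Lss) make the first ring-bearing sterol, and the later enzymes remove methyl groups and move or reduce double bonds. Most of these genes are targets of the transcription factor SREBP-2, which is released from the endoplasmic reticulum when sterols there run low, and dividing T cells need new membrane after antigen receptor stimulation.

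RefSeq promoter windows, which reach from 250 bases before to 50 bases after an annotated start (assembly GRCm38.p6), were matched to 7 of the 9 genes and gave 9 windows, since Dhcr7 has several. The 4 short motifs tied in the literature to sterol genes were searched on both strands: TCACNCCAC (a sterol regulatory element), CACGTG (an E-box), CCAAT (the NF-Y box) and GGGCGG (the GC box bound by Sp1). CCAAT was found in 7 of the 9 windows, with at least 1 match for each of the 7 genes, against 37.4% of all 32851 windows. GGGCGG was found in 8 of the 9 windows, again in all 7 genes, against 35.7% of all windows. CACGTG was found in 3 windows, those of Hsd17b7, Sc5d and Dhcr7, against 7.15%, and TCACNCCAC in 0, against 1.24%. Each motif was searched as this exact string, with N for any base, so other forms of a sterol regulatory element were not searched. No match of one motif overlapped a match of another. Windows of 3 genes are printed below up to the start site, on the strand of the gene, with CCAAT, or ATTGG where the match lies on the opposite strand, in capitals. They are those of the 2 genes with the largest difference between KI and wt at 48 h (Lss, chr10:76531355-76531604, plus strand, and Msmo1, chr8:64733579-64733828, minus strand) and of the gene with the largest rise in wt cells (Cyp51, chr5:4104698-4104947, minus strand).
Lss: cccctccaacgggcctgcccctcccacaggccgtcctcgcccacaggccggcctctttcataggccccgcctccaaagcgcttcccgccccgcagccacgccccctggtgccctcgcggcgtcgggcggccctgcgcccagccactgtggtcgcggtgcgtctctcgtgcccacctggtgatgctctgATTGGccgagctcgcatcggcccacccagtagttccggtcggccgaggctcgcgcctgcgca
Cyp51: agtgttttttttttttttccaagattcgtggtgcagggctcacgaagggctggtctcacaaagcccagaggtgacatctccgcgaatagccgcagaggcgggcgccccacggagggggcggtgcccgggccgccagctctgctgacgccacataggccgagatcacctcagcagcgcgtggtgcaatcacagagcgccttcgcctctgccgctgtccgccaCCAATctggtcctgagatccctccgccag
Msmo1: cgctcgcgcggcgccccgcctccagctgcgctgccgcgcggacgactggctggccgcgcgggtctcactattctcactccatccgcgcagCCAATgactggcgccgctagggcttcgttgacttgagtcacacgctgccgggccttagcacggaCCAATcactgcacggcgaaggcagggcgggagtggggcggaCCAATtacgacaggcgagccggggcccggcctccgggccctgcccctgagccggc
The match in Lss begins at base -62 from the start site, that in Cyp51 at -29, and those in Msmo1 at -160, -96 and -55. These are matches of letters and no measurement of binding was made.

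Total counts per library lay between 62551905 and 93489115. The summed level of 5 CD8 T cell markers (Cd8a, Cd8b1, Cd3d, Cd3e and Trac) was between 2155 and 4449 CPM (counts per 1000000 of the TMM-scaled library total) in every library. Summed B cell markers (Cd79a, Cd79b, Ms4a1 and Ighm) reached 2134 CPM in 1 naive KO library. They lay at 949.9 to 1174 CPM in wt and 844.3 to 1051 CPM in KI in naive cells, and at 449.5 to 643.8 CPM in wt and 489.3 to 727.1 CPM in KI at 48 h. In both genotypes the sums of B cell, NK cell, myeloid and erythroid markers were lower in every library of 48 h than in every naive library. So was the CD8 T cell sum, at 3550 to 4180 CPM in naive wt libraries and 2237 to 2884 CPM in those of 48 h. In KI it was at 4142 to 4403 CPM in naive libraries and 2624 to 2823 CPM at 48 h. The part of these cell types in the changes with time was not tested. Tcaim, the targeted gene, was at 14.8 ± 0.309 CPM (SD, n = 3) in naive wt cells and 141 ± 3.28 CPM (SD, n = 3) in naive KI cells. In the libraries labelled KO it was at 14.9 and 19.5 CPM in naive cells and at 5.99 and 11.7 CPM at 48 h, against 10.1 ± 1.65 CPM (SD, n = 3) in wt at 48 h, so the labels KO are not borne out by the level of the gene. Whether the counted exons include the deleted part is not given in the sources used here. In bulk RNA, fewer cells of a type and less RNA per cell cannot be told apart.

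All 9 enzymes were detected in every naive library. Levels of different genes are compared here on the deposited FPKM scale, which divides by gene length. In naive wt cells Sc5d, the sterol C5-desaturase, had the highest level at 11.8 ± 0.545 FPKM (SD, n = 3), followed by Dhcr7 at 9.17 ± 0.224, Fdft1 at 8.54 ± 1.03 and Nsdhl at 7.75 ± 0.332 FPKM. Cyp51 followed at 5.57 ± 0.662 FPKM, and Sqle, Msmo1, Lss and Hsd17b7 lay between 3.86 and 2.47 FPKM. The ranges of the 3 mice did not overlap between Sc5d and Dhcr7, between Nsdhl and Cyp51 and between Cyp51 and Sqle, while all other neighbours in this order overlapped. The order was changed after stimulation. At 48 h in wt cells Cyp51, the lanosterol 14-alpha-demethylase, led at 74.4 ± 5.96 FPKM (SD, n = 3), with no overlap with Fdft1 at 39.3 ± 1.48 FPKM. Sc5d was at 37.2 ± 6.25, Dhcr7 at 26.9 ± 7.90, Sqle at 26.7 ± 4.04, Nsdhl at 22.7 ± 6.30 and Msmo1 at 21.9 ± 2.85 FPKM, each overlapping the next. Lss (11.9 ± 2.93 FPKM) and Hsd17b7 (6.15 ± 0.543 FPKM) were the lowest, as in naive cells, and stood apart from each other and from Msmo1.

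**Figure D1:**
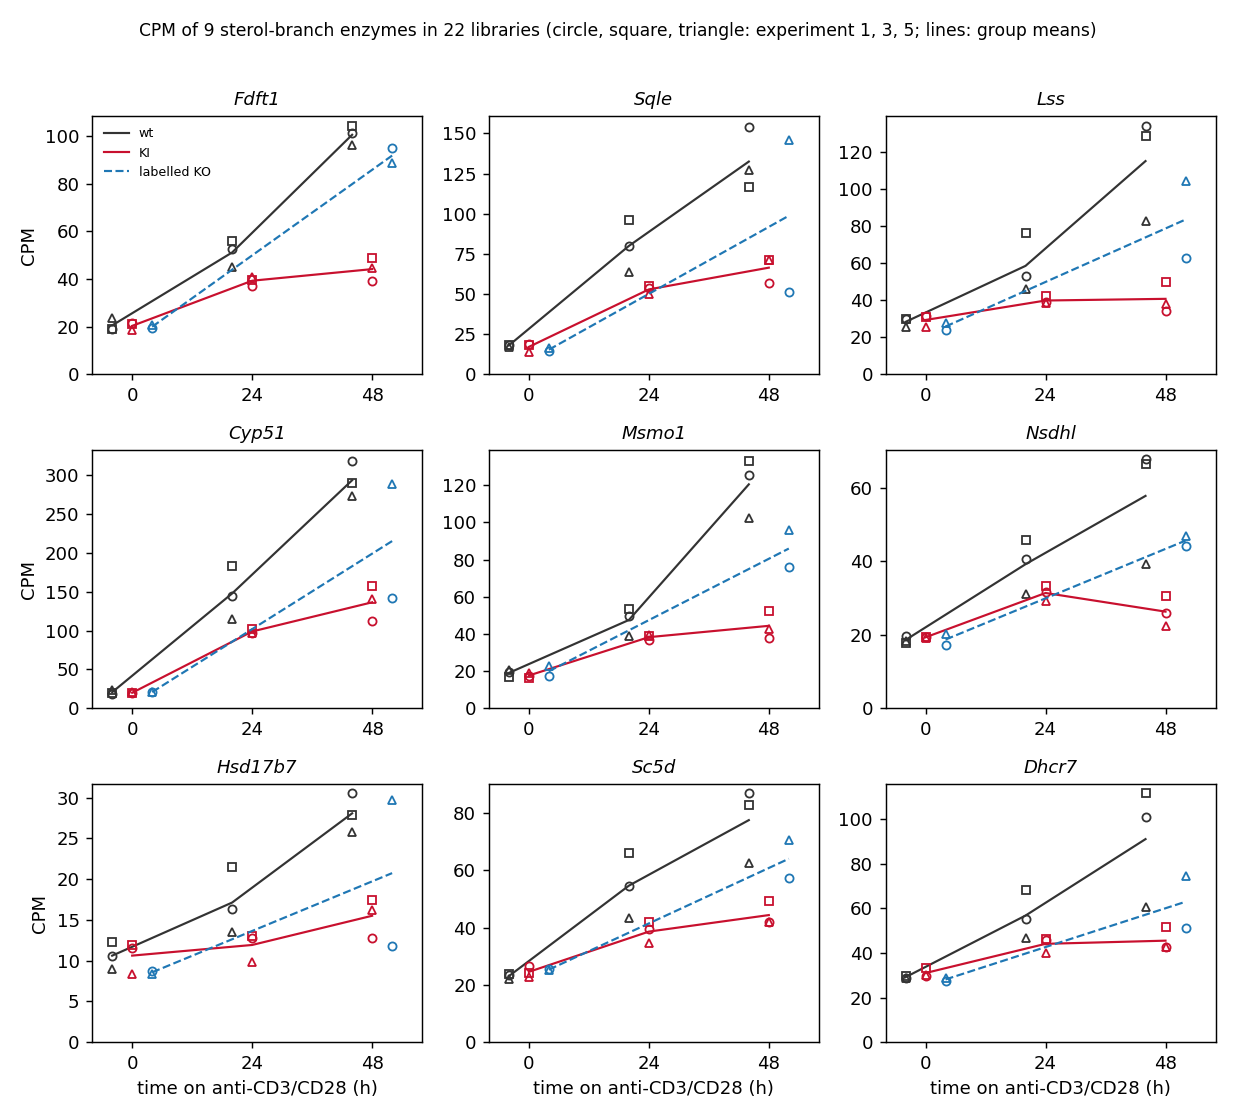
CPM of each enzyme (vertical axes, starting at 0) against hours of stimulation (horizontal axes) in all 22 libraries, with points shifted sideways by genotype, shapes for the experiment and lines through group means. At 48 h all 3 KI libraries lie below all 3 wt libraries in each of the 9 panels, and the 2 libraries labelled KO are far apart for Sqle, Cyp51 and Hsd17b7.

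All 9 enzymes rose in wt cells over 24 h of stimulation, where 26.3% of the 21183 genes tested were called higher. No library came from cells cultured without stimulation, so stimulation and time in culture cannot be told apart. A gene was called where edgeR's quasi-likelihood test gave a Benjamini-Hochberg adjusted p under 0.05 over all tested genes. The log2 fold changes ran from 0.69 for Hsd17b7 to 2.84 for Cyp51 with a median of 1.24, while the median over all tested genes was -0.05. Cyp51 was at 18.4, 20.3 and 23.4 CPM in the naive wt mice of experiments 1, 3 and 5 and at 145, 184 and 115 CPM at 24 h, which gave 2.84 ± 0.214 on the log2 scale (SE, adjusted p = 7.23e-09). Sqle, whose product is squalene epoxide, was at 18.3, 18.3 and 17.3 CPM and then at 79.7, 96.1 and 64.0 CPM, or 2.15 ± 0.259 on that scale (SE, adjusted p = 2.03e-06). These rises were the largest of the 9, and no naive library overlapped a 24 h library for any of the 9 enzymes, as for 33.2% of all tested genes. Msmo1, Fdft1 and Sc5d followed at 1.32, 1.32 and 1.24, and Nsdhl, Lss and Dhcr7 at 1.08, 1.05 and 0.96. Hsd17b7, the 3-ketosteroid reductase of the C4 demethylation complex, had the smallest change (adjusted p = 0.0328), and it passed in 6 of the 12 alternative fits, with adjusted p up to 0.153 without the wt mouse of experiment 3.

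Between 24 and 48 h the wt cells went on to raise 6 of the 9 enzymes, where 4.08% of all tested genes were called higher. Msmo1, the C4-methyl sterol oxidase, was at 49.8, 53.6 and 39.1 CPM at 24 h and at 126, 133 and 103 CPM at 48 h, which gave 1.34 ± 0.159 on the log2 scale (SE, adjusted p = 0.000219). Its gain within each wt mouse was close to constant, from 1.31 to 1.39 on the log2 CPM scale. Fdft1 was at 52.4, 56.1 and 45.0 CPM at 24 h and at 101, 104 and 96.2 CPM at 48 h, or 0.97 ± 0.119 on that scale (SE, adjusted p = 0.000233). Cyp51, Lss, Dhcr7 and Sc5d rose by 0.99, 0.98, 0.68 and 0.50 on the log2 scale, with adjusted p between 0.00545 and 0.0459. The 3 enzymes that were not called had log2 fold changes of 0.73 (Sqle, adjusted p = 0.0839), 0.71 (Hsd17b7, adjusted p = 0.101) and 0.56 (Nsdhl, adjusted p = 0.0611), and each of them was higher at 48 h in 3 of 3 wt mice. With the mouse as a block, all 9 were called (adjusted p = 0.0418, 0.0491 and 0.0311 for Sqle, Hsd17b7 and Nsdhl). Leaving out the wt mouse of experiment 1 left 2 calls, and fitting these groups alone left 3. Over the whole 48 h the 9 enzymes rose by 1.40 (Hsd17b7) to 3.83 (Cyp51) on the log2 scale, where 29.5% of all tested genes were called higher.

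In KI cells the first 24 h raised 7 of the 9 enzymes, where 22.9% of all tested genes were called higher. Cyp51 was at 20.1, 19.1 and 20.7 CPM in the naive KI mice and at 97.3, 102 and 97.4 CPM at 24 h, a gain of 2.31 ± 0.210 in log2 terms (SE, adjusted p = 1.11e-07). Sqle rose by 1.63, Msmo1 by 1.12, Fdft1 by 0.95, Nsdhl by 0.70, Sc5d by 0.65 and Dhcr7 by 0.51 on the log2 scale. Dhcr7 (adjusted p = 0.0391) passed in 5 of its 12 alternative fits, and was not called when any 1 KI mouse was left out. Lss had a log2 fold change of 0.44 (adjusted p = 0.115, or 0.0301 with the mouse as a block) and Hsd17b7 one of 0.17 (adjusted p = 0.635, and a value of -0.0029 with upper-quartile scaling). Between 24 and 48 h none of the 9 was called by edgeR in either direction in KI cells, where 2.68% of all tested genes were called. At an unadjusted p under 0.05 there was 1 of 9, Cyp51, against 15.5% of all tested genes, and DESeq2 called 0. The log2 fold changes over this step ran from -0.25 (Nsdhl, 95% interval -0.62 to 0.12) to 0.46 (Cyp51, 0.05 to 0.88). Nsdhl, the 3-beta-hydroxysteroid dehydrogenase of C4 demethylation, was lower at 48 h than at 24 h in 3 of 3 KI mice and higher in 3 of 3 wt mice. Fdft1, Sqle, Cyp51, Msmo1, Hsd17b7 and Sc5d were higher at 48 h in 3 of 3 KI mice, though Hsd17b7 by only 0.0017 in log2 CPM in 1 of them. Lss was higher in 1 and Dhcr7 in 2 of the 3 KI mice. For 3 of the 9 every KI library of 48 h lay above every one of 24 h, as for 14.3% of all tested genes. Over the whole 48 h, 7 of the 9 rose in KI cells, by 0.45 (Nsdhl) to 2.77 (Cyp51) on the log2 scale, where 26.6% of all tested genes were called higher. Lss (0.47, adjusted p = 0.0783) and Hsd17b7 (0.55, adjusted p = 0.0855) were not called, and both were with the mouse as a block (adjusted p = 0.02 and 0.0451). Leaving out any 1 KI mouse gave 5 calls over 48 h, and Nsdhl passed in 5 of its 12 alternative fits.

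**Figure D2:**
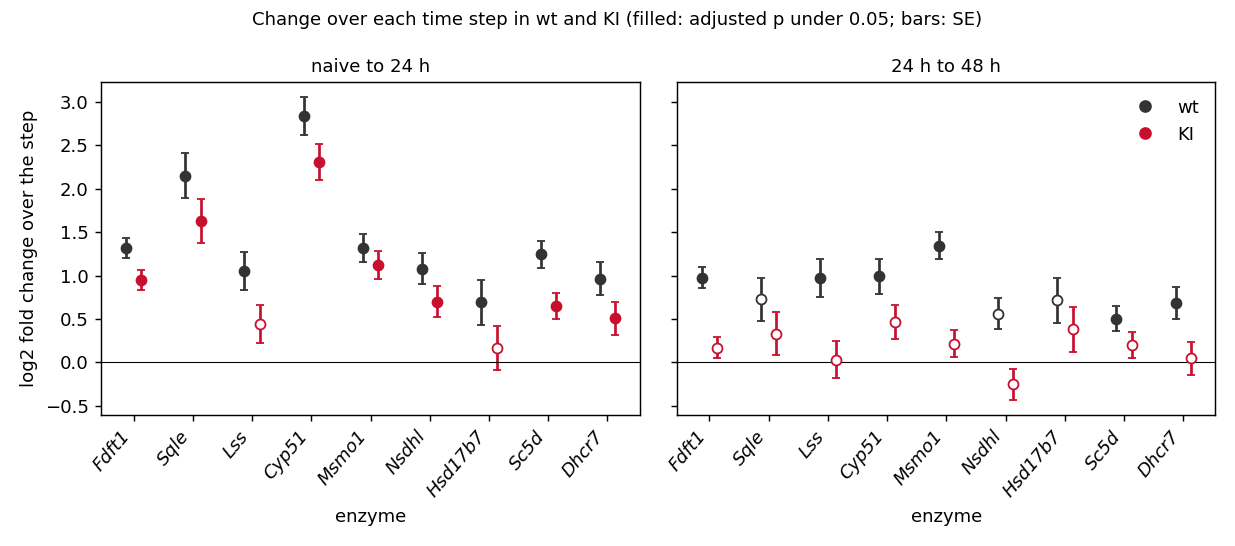
Log2 fold change (vertical axes) of each enzyme over the step from naive to 24 h (left) and from 24 h to 48 h (right) in wt and KI cells, with bars for the SE and filled points where the adjusted p was under 0.05. In the second step 6 wt points and 0 KI points are filled, and Nsdhl in KI lies at -0.25.

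The 9 enzymes did not differ detectably between KI and wt cells in the naive state. None of the 9 enzymes was called by edgeR or DESeq2, with 0 of 9 at an unadjusted p under 0.05 against 2.05% of all tested genes, and 0.113% of all tested genes were called. The log2 fold changes lay between -0.11 (Msmo1) and 0.09 (Sc5d), and the 95% interval for Sqle, for example, ran from -0.60 to 0.45. At 24 h all 9 were lower in KI than in wt, at -0.60 (Sqle) to -0.31 (Msmo1), with a median of -0.50 against 0.01 for all tested genes. None was called by edgeR, where 0.00472% of all tested genes were, nor by DESeq2. At an unadjusted p under 0.05 there were 5 of 9 (Sc5d, Fdft1, Cyp51, Lss and Sqle), against 8.98% of all tested genes. For 7 of the 9 every KI library lay below every wt library at 24 h, as for 9.41% of all tested genes.

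At 48 h, 8 of the 9 enzymes were lower in KI than in wt cells, where 1.89% of all tested genes were called lower. The median log2 fold change of the 9 was -1.11, and that of all tested genes was 0.00. For all 9 every KI library lay below every wt library, as for 9.78% of all tested genes. Leaving out the KI or the wt mouse of experiment 1 left 4 calls, Fdft1, Lss, Msmo1 and Nsdhl, which passed in each of the 6 fits that left out 1 mouse, and all 9 had lower values in KI in each of them. Fitting the KI and wt libraries of 48 h alone left 5 calls.

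The first enzymes of the branch were among those that differed. Fdft1, which commits farnesyl diphosphate to sterols, was at 101, 104 and 96.2 CPM in wt and at 39.0, 48.7 and 44.9 CPM in KI. The KI libraries were all under the lowest wt library by a wide margin, and the log2 fold change was -1.19 ± 0.119 (SE, adjusted p = 4.9e-05), rank 3 of 21183 genes by p. Sqle was at 154, 116 and 127 CPM in wt and at 56.8, 71.1 and 71.3 CPM in KI. Its log2 fold change was -0.996 ± 0.249 (SE, adjusted p = 0.0293), and it passed in 1 of the 6 fits that left out a mouse, that without the wt mouse of experiment 3. Lss, which closes the rings to give lanosterol, was at 134, 129 and 82.5 CPM in wt and at 34.2, 49.8 and 38.1 CPM in KI. The wt mouse of experiment 5 was lower than the other wt mice but above every KI mouse, and the log2 fold change was -1.50 ± 0.220 (SE, adjusted p = 0.000913), the largest of the 9.

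Cyp51, Msmo1, Nsdhl and Hsd17b7 take part in the removal of methyl groups from lanosterol. Cyp51 was at 318, 290 and 273 CPM in wt and at 112, 157 and 141 CPM in KI, and the log2 fold change was -1.11 ± 0.201 (SE, adjusted p = 0.00451). Msmo1 was at 126, 133 and 103 CPM in wt and at 37.9, 52.5 and 42.8 CPM in KI, and the log2 fold change was -1.44 ± 0.159 (SE, adjusted p = 0.000105), rank 6 of 21183 by p. The groups were separated by more than the range of either. Nsdhl, an X-linked gene, was at 67.9, 66.4 and 39.2 CPM in wt and at 25.9, 30.6 and 22.5 CPM in KI, and the log2 fold change was -1.14 ± 0.178 (SE, adjusted p = 0.00157). Its low wt value is that of the female mouse of experiment 5, the lowest wt mouse at 48 h for 8 of the 9 enzymes. Sex and experiment cannot be told apart here. Hsd17b7 was at 30.6, 27.8 and 25.8 CPM in wt and at 12.8, 17.5 and 16.2 CPM in KI, so that the groups did not overlap. Its log2 fold change of -0.86 ± 0.256 missed the threshold in edgeR (adjusted p = 0.0656), and DESeq2 called all 9 enzymes.

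Sc5d and Dhcr7 act late in the branch. Sc5d was at 87.0, 83.0 and 62.7 CPM in wt and at 42.1, 49.3 and 41.9 CPM in KI, and the log2 fold change was -0.80 ± 0.150 (SE, adjusted p = 0.00513). Dhcr7, which reduces 7-dehydrocholesterol to cholesterol, was at 101, 112 and 60.5 CPM in wt and at 42.5, 51.6 and 42.5 CPM in KI, and the log2 fold change was -0.9998 ± 0.189 (SE, adjusted p = 0.00561), which was also not called without the KI mouse of experiment 5. For both, the wt mouse of experiment 5 was the lowest of the wt mice and the nearest to the KI mice. On the length-scaled measure the order of the enzymes in KI at 48 h began with Cyp51 (34.3 ± 5.95 FPKM, SD, n = 3), Sc5d (21.1 ± 2.199) and Fdft1 (17.1 ± 1.99) and ended with Lss (4.19 ± 0.871) and Hsd17b7 (3.37 ± 0.540), whose ranges overlapped, unlike in wt.

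**Figure D3:**
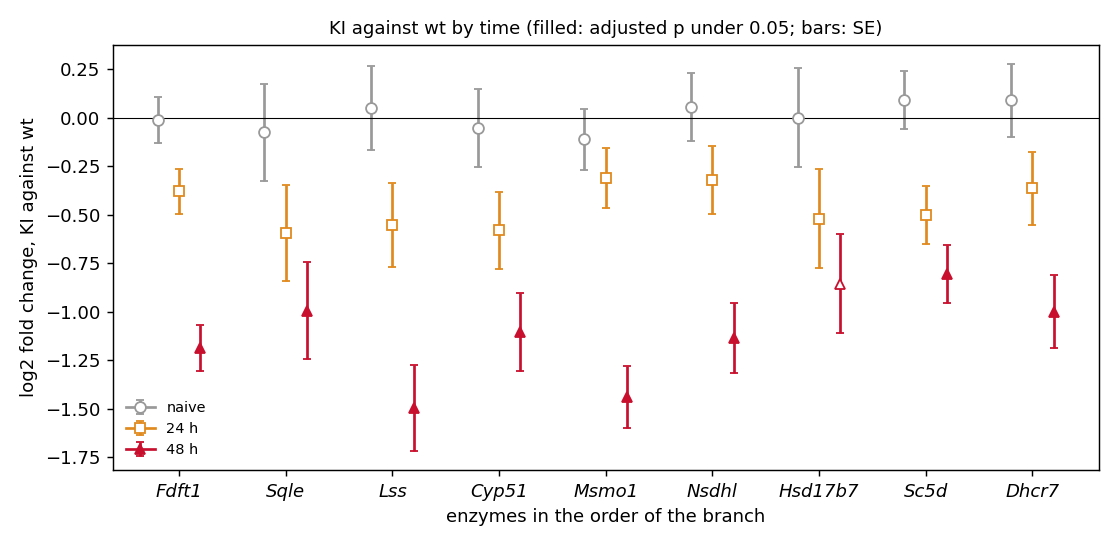
Log2 fold change of KI against wt (vertical axis) for each enzyme, in the order of the branch, in naive cells, at 24 h and at 48 h, with bars for the SE and filled points where the adjusted p was under 0.05. Naive points lie between -0.11 and 0.09, 24 h points between -0.60 and -0.31, and 48 h points between -1.50 and -0.80, with Hsd17b7 unfilled.

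Group means of KI at 48 h were 67.1% (Nsdhl) to 93.4% (Msmo1) of the wt means at 24 h, and below them for all 9 enzymes. The ranges of the libraries overlapped for all but 1 of the 9. Cyp51, for example, stood at 137 ± 22.9 CPM (SD, n = 3) in KI at 48 h and at 148 ± 34.1 CPM (SD, n = 3) in wt at 24 h. This contrast was not fitted as a test.

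The response to stimulation was compared between genotypes as the difference of the changes. From naive to 48 h, 4 of the 9 enzymes responded less in KI than in wt, where 0.25% of all tested genes were called lower. The differences in log2 fold change were -1.17 ± 0.168 for Fdft1 (SE, adjusted p = 0.00547), -1.33 ± 0.222 for Msmo1 (adjusted p = 0.0102), -1.55 ± 0.307 for Lss (adjusted p = 0.0303) and -1.19 ± 0.251 for Nsdhl (adjusted p = 0.0436). For the other 5 they lay between -1.09 (Dhcr7) and -0.86 (Hsd17b7) with adjusted p from 0.0809 to 0.429. With the mouse as a block Sc5d (-0.88, adjusted p = 0.0314) and Dhcr7 (-1.05, adjusted p = 0.0323) were called as well. None of the 9 was called without the KI mouse of experiment 1, the KI mouse of experiment 5 or the wt mouse of experiment 1, and the differences stayed between -1.68 and -0.67 in every fit that left out 1 mouse.

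Split by step, none of the 9 passed in edgeR. From naive to 24 h the differences lay between -0.61 (Lss) and -0.20 (Msmo1), with 2 of 9 at an unadjusted p under 0.05 against 3.28% of all tested genes, 0% of which were called, and DESeq2 called 0. From 24 to 48 h they lay between -1.13 (Msmo1) and -0.30 (Sc5d), with 5 of 9 at an unadjusted p under 0.05 against 5.66% of all tested genes. Here 0.00472% of all tested genes were called by edgeR, and DESeq2 called 2 of the 9. Within wt mice Msmo1 gained 1.31 to 1.39 on the log2 CPM scale over this step, and within KI mice 0.05 to 0.43 (difference of the fits -1.13, adjusted p = 0.18). Fdft1 gained 0.89 to 1.09 within wt mice and 0.07 to 0.29 within KI mice (difference -0.81, adjusted p = 0.18). Msmo1 thus had the smallest difference of the 9 over the first step and the largest over the second.

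Each experiment held 1 KI and 1 wt mouse, so the difference could be read within experiments. At 48 h all 9 enzymes were lower in KI in each of the 3 experiments, with median differences in log2 CPM of -1.39, -1.10 and -0.83 in experiments 1, 3 and 5. At 24 h 9, 9 and 8 of the 9 were lower, with medians of -0.45, -0.66 and -0.25. In naive cells the medians were 0.09, 0.03 and -0.10. For each of the 9 enzymes the difference at 48 h was widest in experiment 1, and it reached -1.97 for Lss.

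**Figure D4:**
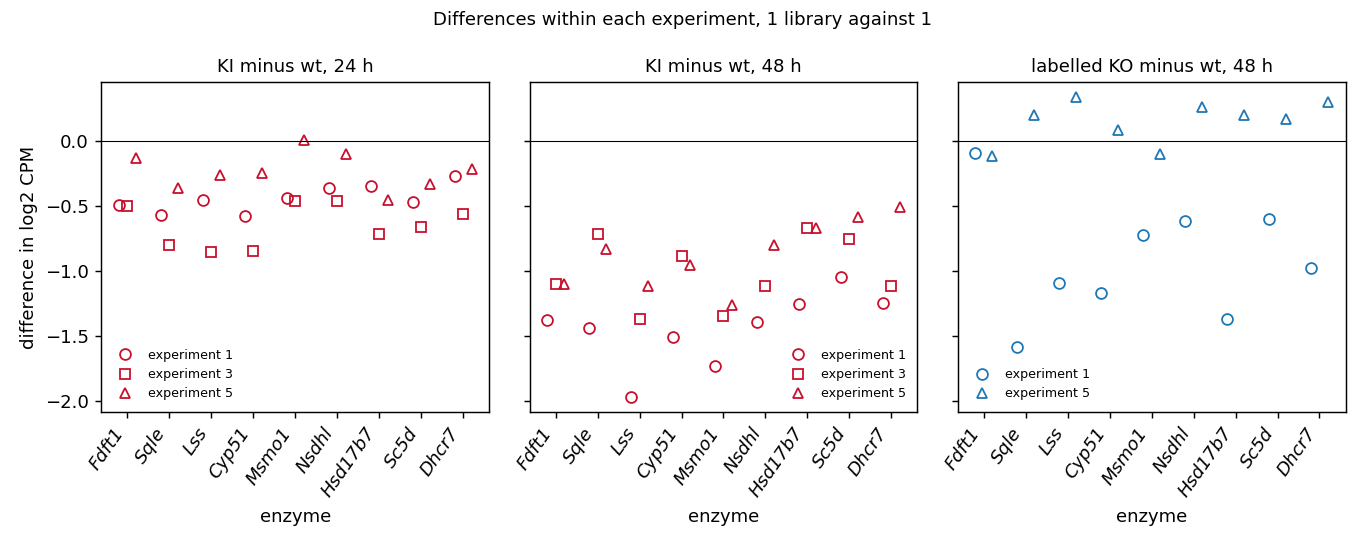
Difference in log2 CPM (vertical axes) between 1 KI and 1 wt library of the same experiment at 24 h (left) and 48 h (middle), and between the libraries labelled KO and wt at 48 h (right), for each enzyme. All 27 KI points at 48 h lie below 0, whereas the KO points of experiments 1 and 5 lie on opposite sides of 0 for 7 enzymes.

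In the libraries labelled KO all 9 enzymes rose over 48 h of stimulation, where 23.6% of all tested genes were called higher. The log2 fold changes ran from 1.16 (Dhcr7) to 3.36 (Cyp51), and 3 were called when the KO libraries were fitted alone. Without the KO mouse of experiment 5, Hsd17b7 was at 0.43 (adjusted p = 0.33) and Sqle at 1.82, against 1.83 and 3.18 without that of experiment 1. Summed salivary gland markers were at 31.08 to 69.03 CPM in the naive KO libraries and at most 12.28 CPM in every other group, and the highest sums of CD4 T cell (236 CPM) and NK cell markers (106 CPM) were also in naive KO libraries. At 48 h the CD4 T cell sum was at 31.56 to 175.3 CPM in the KO libraries. It was at most 48.11 CPM in wt and 70.05 CPM in KI at that time. The part of these marker sums in the KO values was not tested. In naive cells none of the 9 was called against wt by edgeR or DESeq2, with 0 of 9 at an unadjusted p under 0.05 against 1.31% of all tested genes, 0.0236% of which were called, and the log2 fold changes lay between -0.31 (Hsd17b7) and 0.14 (Sc5d). At 48 h none of the 9 was called against wt by edgeR, where 0.0283% of all tested genes were, nor by DESeq2. At an unadjusted p under 0.05 there were 2 of 9, Msmo1 and Dhcr7, against 6.92% of all tested genes. The log2 fold changes at 48 h lay between -0.53 (Dhcr7) and -0.13 (Fdft1). The response from naive to 48 h differed from that of wt by -0.55 (Msmo1) to -0.09 (Fdft1). None of the 9 was called there by edgeR or DESeq2, with 1 of 9 at an unadjusted p under 0.05 against 2.32% of all tested genes, 0% of which were called.

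The KO mice differed from each other at 48 h. Sqle was at 51.4 CPM in the KO mouse of experiment 1 and at 146 CPM in that of experiment 5. Cyp51 was at 142 and 289 CPM and Hsd17b7 at 11.8 and 29.6 CPM in the same order. Fdft1, at 95.03 and 88.7 CPM, and Nsdhl, at 44.3 and 47.0 CPM, differed little between the mice. The library of experiment 1 also stood apart over all genes, at -76.9 on the second principal component (8.47% of the variance), where the other KO library of 48 h was at 6.32. The wt libraries of 48 h were at -5.76, -36.5 and 5.69 there in experiments 1, 3 and 5. Within experiment 1 the KO library was below the wt library for all 9 enzymes, with a median difference in log2 CPM of -0.97, and within experiment 5 it was below for 2 of 9, with a median of 0.20. Without the KO mouse of experiment 5, 6 of the 9 were called lower, where 11.9% of the 22144 genes tested in that fit were called lower. They were at -1.37 for Sqle, -1.25 for Hsd17b7, -1.06 for Cyp51, -0.88 for Lss, -0.83 for Dhcr7 and -0.67 for Msmo1. That fit leaves 1 KO library at 48 h, which is assumed to vary like the other groups. Without the KO mouse of experiment 1 none was called, and Sqle and Hsd17b7 were at 0.14 and 0.08. The KO mouse of experiment 1 was female and the wt mouse of that experiment male, so sex and genotype cannot be told apart within it.

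The 9 enzymes varied together over the libraries. Pearson's r of log2 CPM between pairs of enzymes ran from 0.832 to 0.987 with a median of 0.937 over 36 pairs and 22 libraries, which share the change with time. After group means were taken off, r ran from 0.149 to 0.931 with a median of 0.655, over libraries that share depth and scaling. Fdft1 followed the other 8 least closely within groups (r = 0.399 with their mean) and Lss most closely (r = 0.943). The widest deviations from a group mean, up to 0.752 in log2 CPM, were in the 2 KO libraries of 48 h. Their part in these r was not tested. The wt library of experiment 5 was the lowest of its group for 9 of the 9 enzymes at 24 h and for 8 of 9 at 48 h, and the KI library of experiment 3 was the highest of its group for 7 and 8 of 9. At 48 h the coefficient of variation among wt mice ran from 4.07% for Fdft1 to 29.6% for Dhcr7.

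Among 13060 genes with a mean log2 CPM over 1, those most like the mean of the 9 enzymes over the 22 libraries were Stard4 (r = 0.985), a carrier of cholesterol between membranes, and Fdps (r = 0.985), which makes farnesyl diphosphate. Gm3571, Hmgcs1, Pmvk, Gm5873, Fam185a, Gm6781 and Acat2 were also among the 10 most like, with r from 0.984 down to 0.977. Of the genes named here 4 were on the list of the mevalonate arm, and 3 (Gm3571, Gm5873 and Gm6781) are annotated as processed pseudogenes in GENCODE M21, a kind of gene whose counts are uncertain where a near-identical copy shares reads. The measure takes in the rise with time that the libraries share.

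Upstream of the branch lies the mevalonate arm. Of all tested genes 1.89% were called lower in KI than in wt at 48 h, 2.28% higher and 4.17% in either direction. Of 7 genes of the mevalonate arm 6 were lower and 0 were higher, with a median log2 fold change of -1.19 beside 0.00 for all tested genes. Fdps went from 78.6 ± 9.29 CPM in wt to 24.9 ± 4.23 CPM in KI (SD, n = 3), which is -1.66 in log2 terms (adjusted p = 0.000102). Mvd, which makes isopentenyl diphosphate, had a log2 fold change of -1.60 (adjusted p = 1.03e-05) and Pmvk, the kinase before it, one of -1.36 (adjusted p = 4.95e-05). Within the sterol branch itself, 1 of 5 further genes was lower, the sterol reductase gene Tm7sf2 (-0.71, adjusted p = 0.0247), and the median was -0.29. Of 9 genes that use farnesyl diphosphate for other products, such as ubiquinone, dolichol and prenyl groups on proteins, 0 were called by edgeR in either direction and 1 by DESeq2, with a median of -0.15. Without the KI mouse of experiment 1, 3 genes of the mevalonate arm were called, and Tm7sf2 was called in 1 of the 6 fits that left out a mouse.

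Of 11 genes of sterol sensing and uptake 3 were lower in KI at 48 h and 0 higher, where 1.89% of all tested genes were called lower. The median was -0.39. Insig1, which holds the SREBP complex in the endoplasmic reticulum, had a log2 fold change of -0.96 (adjusted p = 0.0188), Stard4 one of -0.96 (adjusted p = 0.00116) and Srebf1, which encodes SREBP-1, one of -0.57 (adjusted p = 0.0372). Among all tested genes 2.28% were called higher in KI at 48 h. Of 9 tested genes of sterol efflux, esterification and oxysterols 2 were higher and 0 lower, with a median of 0.46. They were Mylip, a ubiquitin ligase gene induced by sterol-sensing LXR receptors, at 0.90 (adjusted p = 0.00647) and Abca1, a cholesterol exporter, at 0.81 (adjusted p = 0.0317). The list ran from -0.96 to 0.92, with 3 of the 9 below 0. Its median includes genes near the floor at 48 h. Cyp27a1 was at 0.179 CPM in wt and 0.243 CPM in KI, and Ch25h at 0.0218 and 0.0417 CPM. Abca1 was at 65.6 ± 9.55 CPM in naive wt cells and at 6.60 ± 0.886 CPM at 48 h (SD, n = 3). In KI it was at 86.7 ± 3.21 CPM in naive cells and at 11.5 ± 2.45 CPM at 48 h. Mylip was at 70.6 ± 4.94 CPM in naive wt and 81.7 ± 2.79 CPM in naive KI cells. In naive cells 0 of the 9 genes were called between KI and wt, where 0.113% of all tested genes were. For the response from naive to 48 h 0 of the 9 were called, where 0.387% of all tested genes were, with a median of 0.10. Cyp7b1 did not pass the low-count filter. Without the KI or the wt mouse of experiment 1, 1 gene of sensing and uptake and 0 of efflux were called, and without the KI mouse of experiment 3 or the wt mouse of experiment 5 the efflux list had 1.

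**Figure D5:**
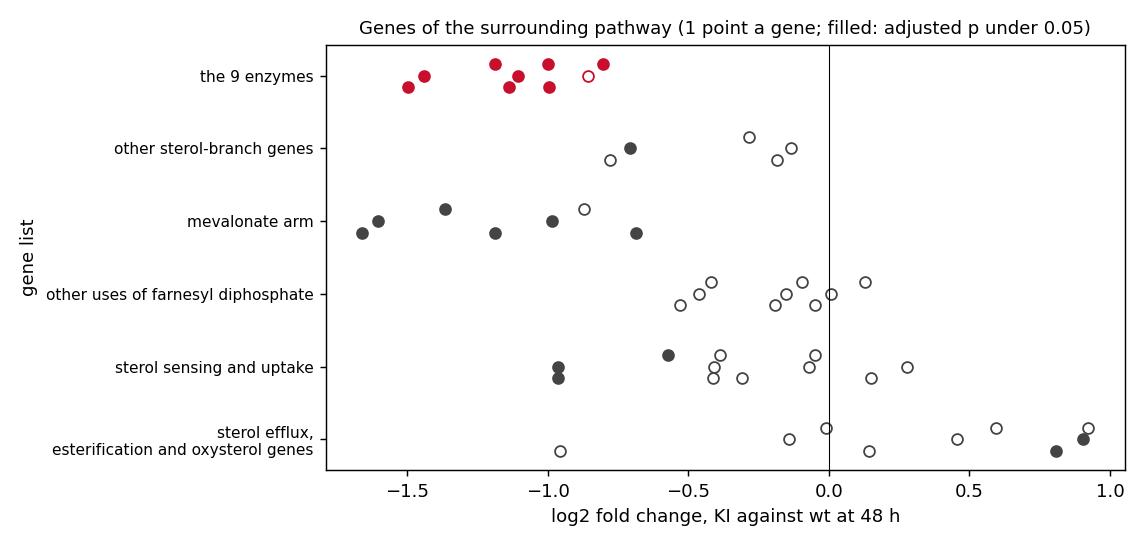
Log2 fold change of KI against wt at 48 h (horizontal axis) for the 9 enzymes and for the genes of 5 surrounding lists (vertical axis), 1 point a gene, filled where the adjusted p was under 0.05. The 9 enzymes lie between -1.50 and -0.80 and the mevalonate arm between -1.66 and -0.69, while the filled points of the efflux list lie above 0.

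The positions of the 9 genes in the deposited tables match GENCODE M21 on GRCm38. Fdft1 lies on chromosome 14 (63145150 to 63179578, minus strand), Lss on chromosome 10 (76531588 to 76557138, plus strand), Cyp51 on chromosome 5 (4081145 to 4104746, minus strand), Msmo1 on chromosome 8 (64718139 to 64733792, minus strand) and Nsdhl on chromosome X (72918557 to 72958514, plus strand). Exons of 3 of the 9 overlap an exon of a gene on the opposite strand: Fdft1 with Ctsb, Lss with 4930483K19Rik and Cyp51 with Akap9. The library kit keeps the strand, but whether the counting used it is not given in the sources used here. Ctsb was at 162 CPM in KI and 184 CPM in wt after 48 h (-0.18 in log2 terms, adjusted p = 0.448), and Akap9 at 93.7 and 93.8 CPM (adjusted p = 1).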

How the data were processed

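RNA was measured in 22 libraries of CD8+ T cells from 8 mice. Per the submitters' processing notes the tools were bcl2fastq 2.20.0, TopHat2 2.1.0, Bowtie2 2.2.5, SAMtools 0.1.19, featureCounts and DESeq2 1.6.3, with the builds GRCm38 and mm10, and strand handling in counting is not given in the sources used here. The authors deposited raw counts for 46603 genes, which were tested here, and FPKM values, used here for levels between genes. The authors also deposited log2 values of counts divided by size factors, which were checked against the counts, and variance-stabilised values. CPM used here is the count per 1000000 of the TMM-scaled library total.

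The main test was edgeR 4.0.16 (R 4.3.3): TMM factors, a low-count filter (minimum count 10, minimum total 15), 8 group means over all libraries, robust quasi-likelihood fits and F tests, and Benjamini-Hochberg adjustment over 21183 tested genes, called under 0.05. Robust fitting was chosen after earlier results were seen, and non-robust fitting was added as an alternative. DESeq2 1.42.0, other scalings, no filter, fits of the compared groups alone, experiment or mouse as a block, and leaving out each mouse were the other alternatives. The script was tested on simulated data.

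Replicate numbers are the experiment numbers in the labels, shared by 1 KI and 1 wt mouse, and each mouse gave a library at every time of its genotype. After removal of group means, the 9 pairs of KI and wt libraries from the same experiment and time correlated at a median r of 0.22 (8 over 0.1) and the 18 pairs from different experiments at -0.178. Replicates differed by more than counting noise (chi-square per degree of freedom at least 15.4 over 20 pairs). The p-values of the main fit measure the spread between libraries within groups, each from a different mouse. Libraries of 1 mouse at different times were treated as independent there. After removal of group means, the 20 pairs from the same mouse correlated at a median r of 0.155 (19 over 0.1). The fits with the mouse as a block take this pairing in.

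The 9 genes and the pathway lists were chosen with earlier results of these data known. All 9 are named in every main comparison. Other pathway genes are named by at most the 3 largest called changes per list and direction, and up to 10 genes by likeness. Cyp7b1, Ch25h and Cyp27a1 are named for their low counts. A few genes of the marker, pathway and likeness lists are not reported here and enter no list count or marker sum. Cell type marker sums over all libraries were 27.9 to 236 CPM for CD4 T cells, 38.1 to 289 for myeloid cells, 1.60 to 106 for NK cells, 0.264 to 41.4 for erythroid cells, 2.05 to 69.0 for salivary gland (highest in the naive KO libraries, as for CD4 T and NK cells) and 0 to 0.102 for hepatocytes.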

Additional observations from a re-analysis of the deposited data

Results flagged for a closer look

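The change from naive to 48 h differed between KI and wt in the test of the difference itself for 4 of the 9 enzymes, with differences in log2 fold change of -1.17 for Fdft1, -1.55 for Lss, -1.33 for Msmo1 and -1.19 for Nsdhl. For Nsdhl the step from 24 to 48 h went down in 3 of 3 KI mice, by 0.12 to 0.38 on the log2 CPM scale, and up in 3 of 3 wt mice, by 0.33 to 0.74. The difference between these changes was -0.81 in edgeR and was not called (adjusted p = 0.549).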

How the results depend on the processing

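All 9 enzymes stayed lower in KI than in wt at 24 and 48 h under every scaling tried. Over the alternatives the number of the 9 called ran from 5 to 8 for KI 24 h against naive and from 5 to 9 for KI 48 h against naive. For wt 24 h against naive it was 8 or 9. Larger moves were as follows. With the compared groups fitted alone there were 3 for wt 48 h against 24 h, 3 for KO 48 h against naive and 5 for KI against wt at 48 h. DESeq2 called 2 for the response from 24 to 48 h and 7 for the response from naive to 48 h. Leaving out 1 mouse gave 2 to 5 for wt 48 h against 24 h, 4 to 8 for KI against wt at 48 h, 0 to 5 for the KI response from naive to 48 h, 0 to 6 for KO against wt at 48 h and 0 to 2 for the KO response.

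Signs of single enzymes were not checked for KI or KO against wt in naive cells, nor for the KO response. In the other comparisons signs turned for 5 values that were not called. Hsd17b7 turned in KI from naive to 24 h with upper-quartile factors (-0.0029). Sqle and Hsd17b7 turned in KO against wt at 48 h without KO replicate 1 (0.14 and 0.08, ranges over both left-out mice from -1.37 and -1.25). Lss and Dhcr7 turned in KI from 24 to 48 h without KI replicate 3 (-0.093 to 0.13 and -0.019 to 0.12 over the left-out mice). In naive cells the number of enzymes with negative values also moved with the scaling. For KI against wt it was 4 in the main fit and 5 with each other scaling. For KO against wt it was 5 in the main fit, 7 with upper-quartile factors and 6 with library size alone. The cause was not tested. Upper-quartile factors moved the all-gene median by -0.18 for wt from naive to 24 h and by -0.22 from naive to 48 h, and turned the share of higher calls from 54.5% to 42.6% and from 52.5% to 41.7%. The same factors turned it from 59.2% to 44.9% for KI from naive to 24 h, from 54.6% to 42.9% for KI from naive to 48 h and from 53.7% to 43.1% for KO from naive to 48 h.

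Over all genes, calls for KI against wt at 48 h numbered 884, with 91 without KI replicate 1 and 109 with the groups alone, and 1714 with DESeq2. For KO against wt at 48 h they numbered 6, with 4765 without KO replicate 5. With the replicate block of experiment, Nsdhl in wt from 24 to 48 h (0.55, adjusted p = 0.0381) and Sc5d in the KI response from naive to 48 h (-0.89, adjusted p = 0.0392) passed as well. Beyond these and the calls given with the mouse as a block, the block changed no other call of a single enzyme.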
